A study of Mus musculus with 10 samples.

Results

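The genes of cholesterol synthesis, uptake and efflux are 32 mouse genes, set by name and found in the deposited table by their Ensembl identifiers without the version number. They were 32 of 55359 genes in the table, all of them passed the filter on low values, and the rule that names them uses no measured value. They comprised 6 mevalonate enzymes, 11 sterol enzymes, 5 genes of the SREBP pathway, 5 of sterol transport and esterification, and 5 nuclear receptors of the LXR family with their targets. The thiolase Acat2 was listed under transport and esterification. Gene expression had been measured by RNA sequencing in 10 tumors grown from luciferase-expressing KPC K8484 cells, which are mouse pancreatic cancer cells, after injection into the pancreas of immunocompetent C57BL/6 mice (C57BL/6 J in the study's methods) at 10 weeks of age. Tumors from 5 normoglycemic mice on regular water formed the CTRL group, and 5 tumors from mice that drank 30% dextrose water for 14 days formed the D30 group. All tumors came from 1 cell line and were taken whole with the host's cells. The study's methods give males and females in equal number. The sex of single animals, and so the balance of sexes between these groups, was not given in the sources used here. Y-linked reads were found in 1 D30 tumor alone, as given below. The comparison asks how the added glucose bore on the transcripts of sterol metabolism.

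Cells make cholesterol from acetyl-CoA through mevalonate, farnesyl diphosphate, squalene and lanosterol. When sterols in the endoplasmic reticulum fall, Scap carries the SREBP transcription factors, made from Srebf1 and Srebf2, to the Golgi, where they are cut free to switch on the enzymes of the pathway. Insig1 and Insig2 hold Scap back when sterols are plentiful, and Insig1 is itself an SREBP target. Oxysterols activate the LXR receptors, which raise the exporters Abca1 and Abcg1 and the ubiquitin ligase Mylip that removes lipoprotein receptors. Pancreatic tumor cells are known to use both synthesis and uptake of cholesterol.

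Values are normalized counts, the reads of a gene divided by 1 size factor per tumor. They are listed in the order N1, N2, N4, N5 and N6 for CTRL and T1, T2, T4, T5 and T7 for D30, the names of the columns. Reads per tumor ranged from 29915331 to 42122304 in CTRL and from 29192261 to 37126175 in D30. T5 held reads of the fewest genes, 20482, against 23446 to 24716 in the other D30 tumors and 24200 to 25912 in CTRL. Tumor T4 stood apart: it alone held reads of 4 Y-linked genes, 841 in all against 0 in each of the other 9 tumors. Its normalized total was the highest, 42940494, against a median of 34262978 for D30. For many results the values without T4 are also given. The summed count of 6 epithelial markers, chiefly keratins, ran from 209890 to 335472 in CTRL and from 341271 to 475520 in D30. Epcam, an epithelial adhesion molecule and 1 of the 6, went the other way, with counts of 191, 88.9, 43.9, 15.9 and 85.6 in CTRL and 6.17, 0, 62.5, 3.43 and 8.52 in D30. T4 alone of the D30 tumors lay within the CTRL range. The log2 fold change of Epcam was -3.17 ± 0.94 (SE) with a limma adjusted p of 0.0990, and -3.96 with 0.00902 without T4, a call.

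None of the 32 genes was called different between D30 and CTRL tumors at an adjusted p under 0.05 in limma's moderated test, which called 2.76% of the 24560 genes tested. An unadjusted p under 0.05 was reached by 6 of the 32, 5 of them higher in D30, against 17.3% of all tested genes. No gene of the 32 had groups that did not overlap, which 6.19% of all tested genes had. On the log2(normalized count + 1) scale, the median log2 fold change of the 32 genes was 0.20, beside -0.06 for all tested genes, and 23 estimates lay above 0 and 9 below. Scaled by library size alone, the same medians were -0.03 and -0.27, and 16 estimates lay above 0. Without T4 the medians were 0.15 and -0.05, and 22 estimates lay above 0. In these bulk samples, fewer cells of a type and less RNA per cell cannot be told apart. The closest to a call was Insig1, followed by Fdft1 and Npc1. DESeq2 on the recovered reads, the study's own tool, called 2 of the 32, Insig1 and Fdft1, and 9.27% of the 21379 genes to which it gave an adjusted p.

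**Figure D1:**
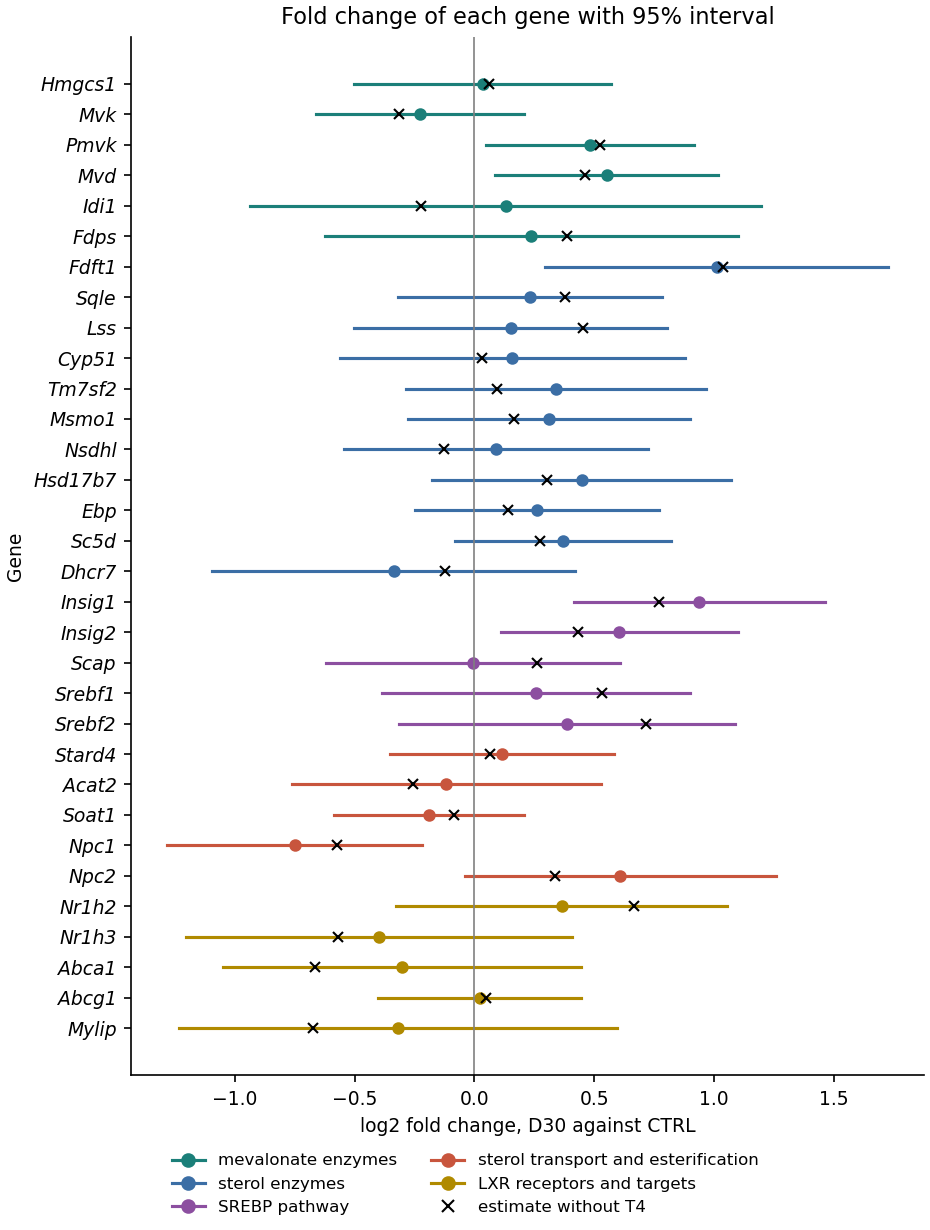
Log2 fold change of D30 against CTRL tumors on the log2(normalized count + 1) scale for each of the 32 genes (filled points, 5 tumors per group) with its 95% interval from limma (lines), coloured by role, and the estimate without tumor T4 (crosses). The intervals of Pmvk, Mvd, Fdft1, Insig1 and Insig2 lay above 0 and that of Npc1 below 0, before adjustment for the number of genes tested.

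Insig1 (ENSMUSG00000045294), the sterol sensor that retains Scap in the endoplasmic reticulum, lies at chr5:28071363-28078662 on the + strand (GRCm38, GENCODE M21). It had normalized counts of 2527, 1508, 1646, 1272 and 2003 in CTRL tumors. In D30 tumors they were 3559, 2993, 5344, 2506 and 2906. All 5 D30 values lay above 4 of the 5 CTRL values, and the groups overlapped only through N1 and T5, at 2527 and 2506. The log2 fold change was 0.94 ± 0.24 (SE), with a CTRL mean of 1791 ± 489 (SD, n = 5), a D30 mean of 3461 ± 1117 (SD, n = 5) and a limma adjusted p of 0.0590. The adjusted p was 0.010 in DESeq2 and 0.0527 in edgeR. Leaving out 1 tumor changed the call 3 times, to limma adjusted p values of 0.0448 without N1, 0.0354 without T4 and 0.0421 without T5, and over every alternative the range was 0.010 to 0.173, with an estimate of 0.72 to 1.07. Insig1 stood on the edge of the threshold, with an estimate above 0 in each of the 23 fits.

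Insig2, its relative with the same retaining role, had counts of 1463, 808, 1138, 1118 and 1075 in CTRL and 1433, 1695, 2705, 1534 and 1309 in D30. T4 was the highest of all 10 tumors and the groups overlapped. Its estimate on the log2 scale was 0.61 ± 0.23 (SE) with a limma adjusted p of 0.195, and 0.43 without T4. Per kb of exon, Insig1 had a mean level of 579 (411 to 817) normalized counts in CTRL and 1119 (810.1 to 1728) in D30, with the range over tumors in parentheses. The level of Insig2 was 323 (233 to 421) in CTRL and 499.7 (377 to 779) in D30. In D30 the lowest Insig1 level was above the highest Insig2 level, while in CTRL the ranges just overlapped.

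Srebf2, which encodes the SREBP that mainly drives sterol genes, had counts of 5185, 7720.4, 8713, 6629 and 7733 in CTRL tumors. In D30 tumors its counts were 15410.4, 10617, 3691, 9602 and 11730.3. Among the D30 tumors 4 lay above every CTRL tumor, and T4 lay below every CTRL tumor. D30 differed from CTRL by a log2 fold change of 0.39 ± 0.32 (SE) with a limma adjusted p of 0.589. Without T4 it was 0.72 with a limma adjusted p of 0.0365, in a fit that called 6.43% of 24471 genes and 2 of the 32, Insig1 and Srebf2.

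Srebf1, whose products drive fatty acid and sterol genes, split the tumors in the same way, with 3416, 5537, 7018, 6639 and 5722 in CTRL and 7785, 7624, 3052, 8871 and 7649 in D30. Again 4 D30 tumors were above all CTRL tumors and T4 below them. Its log2 fold change was 0.26 ± 0.30 (SE) with a limma adjusted p of 0.709, and 0.53 with 0.122 without T4. Scap, the escort of the SREBPs, had counts of 2165 to 4068 across CTRL tumors and 1579.9 to 4135 in D30. Its log2 fold change of -0.01 ± 0.28 (SE) had a 95% interval from -0.62 to 0.61, and T4 was again the lowest tumor. Per length, Srebf2 had a mean of 1002 normalized counts per kb in CTRL and Srebf1 had 1006, levels that did not differ beyond their ranges. Of the 5 genes of the SREBP pathway, 0 were called, 4 estimates were above 0 with each scaling by library size or TMM and 5 with upper-quartile scaling, and the median was 0.39.

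**Figure D2:**
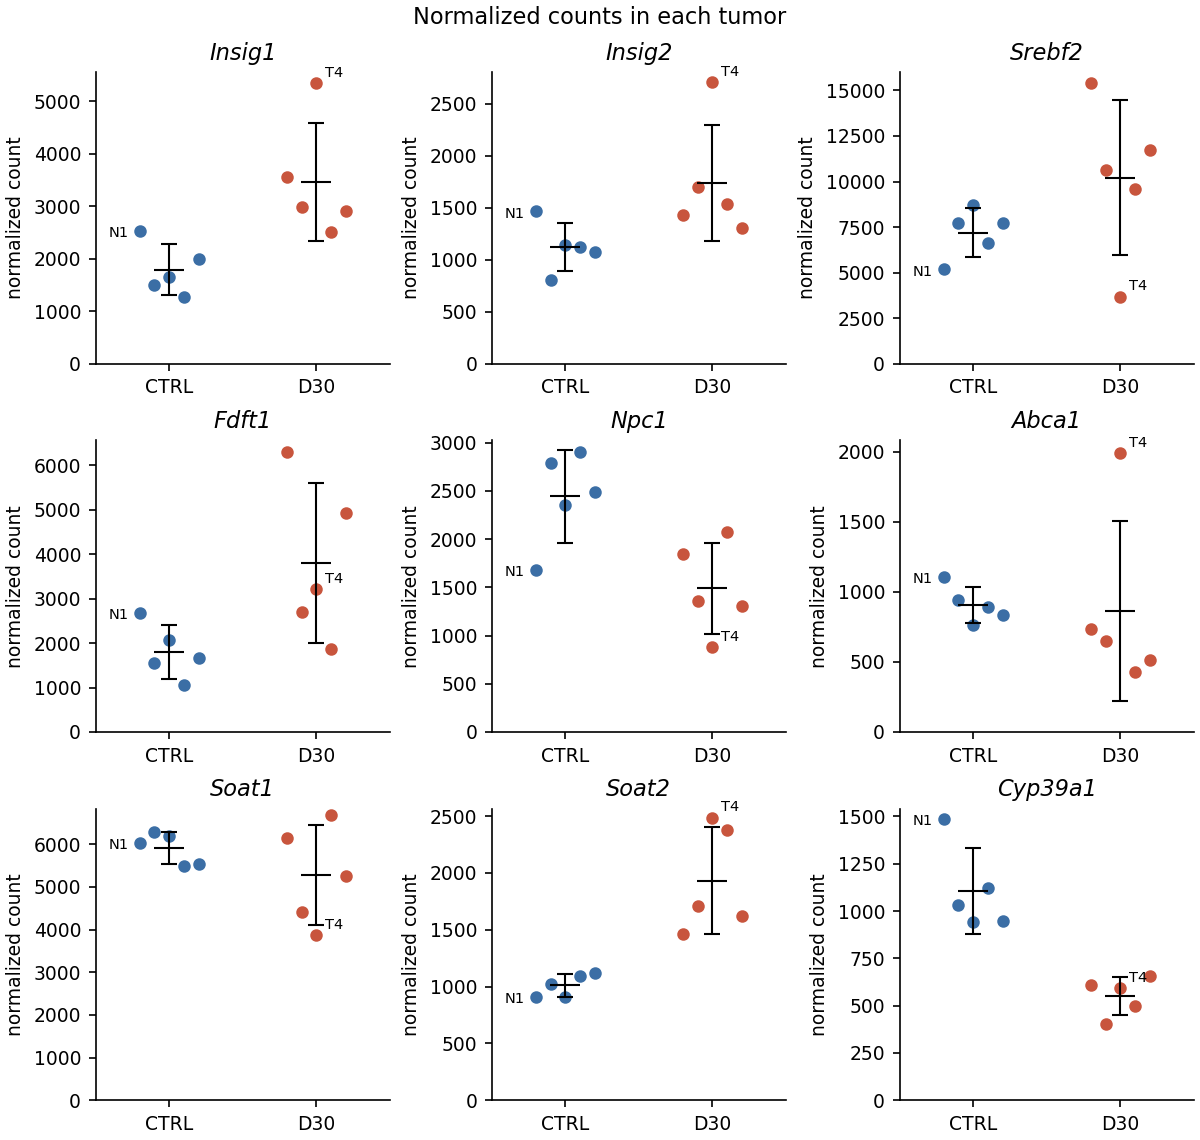
Normalized counts (y axis, from 0) of 9 named genes in each CTRL (blue) and D30 (red) tumor, with the mean and SD of 5 tumors per group in black and tumors N1 and T4 labelled. Insig1 overlapped between the groups through N1 and T5 alone, Srebf2 and Abca1 separated in every tumor but T4, and Soat2 and Cyp39a1 did not overlap.

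A promoter window of 300 bases around a gene's start (RefSeq, GRCm38.p6) was at hand for 26 of the 32 genes, that is, for all but Fdps, Fdft1, Sqle, Npc1, Stard4 and Abcg1. The box CCAAT, which NF-Y binds next to SREBP at many sterol genes, was searched on both strands, and reads ATTGG where it lies on the strand opposite to the gene. At least 1 window of the gene held it in 21 of the 26 (80.8%), against 41.1% of the 27025 genes with a window. All 14 mevalonate and sterol enzymes with a window held it, and 7 of the other 12 genes. The 5 without it were Scap, Acat2, Nr1h2, Nr1h3 and Abca1. The sterol element written as TCACNCCA was found in 3 of the 26 (11.5%), against 4.97% of all genes with a window. A match of letters is a description and not a binding site. No position was shared by both motifs in the windows printed here.

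The 3 windows with both motifs, those of Hmgcs1, Msmo1 and Srebf2, and that of Insig1, the gene closest to a call, are shown from 5′ to 3′ along the gene, with the letters of both motifs in capitals. Hmgcs1 lay at chr13:119690101-119690400 on the + strand, with its sterol element starting 137 bases before the gene's start and 4 CCAAT boxes. Msmo1 lay at chr8:64733529-64733828 on the - strand, with the element 177 bases before the start and 3 boxes. Srebf2 lay at chr15:82147019-82147318 on the + strand, with the element 162 bases before the start and 1 box. Insig1 lay at chr5:28071162-28071461 on the + strand, with 1 box 216 bases before the start. These distances are counted from the RefSeq start that set each window, which is not the GENCODE start of the gene.
Hmgcs1: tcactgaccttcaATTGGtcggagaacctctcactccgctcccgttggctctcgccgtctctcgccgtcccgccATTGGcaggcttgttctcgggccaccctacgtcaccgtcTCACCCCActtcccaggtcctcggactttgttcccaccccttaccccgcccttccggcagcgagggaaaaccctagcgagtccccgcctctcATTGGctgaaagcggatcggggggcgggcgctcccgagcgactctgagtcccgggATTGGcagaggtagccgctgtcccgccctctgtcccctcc
Msmo1: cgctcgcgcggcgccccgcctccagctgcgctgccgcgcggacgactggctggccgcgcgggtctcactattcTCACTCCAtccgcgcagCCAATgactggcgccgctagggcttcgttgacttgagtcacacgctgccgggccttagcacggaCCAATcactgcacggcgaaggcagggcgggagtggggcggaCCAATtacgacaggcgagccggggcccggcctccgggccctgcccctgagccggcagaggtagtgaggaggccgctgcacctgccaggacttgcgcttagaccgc
Srebf2: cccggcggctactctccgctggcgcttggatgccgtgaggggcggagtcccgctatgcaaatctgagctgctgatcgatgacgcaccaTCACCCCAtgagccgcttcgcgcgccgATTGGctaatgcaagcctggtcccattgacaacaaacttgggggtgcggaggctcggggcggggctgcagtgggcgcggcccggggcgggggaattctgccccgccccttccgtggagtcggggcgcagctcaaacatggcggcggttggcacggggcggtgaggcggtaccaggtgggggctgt
Insig1: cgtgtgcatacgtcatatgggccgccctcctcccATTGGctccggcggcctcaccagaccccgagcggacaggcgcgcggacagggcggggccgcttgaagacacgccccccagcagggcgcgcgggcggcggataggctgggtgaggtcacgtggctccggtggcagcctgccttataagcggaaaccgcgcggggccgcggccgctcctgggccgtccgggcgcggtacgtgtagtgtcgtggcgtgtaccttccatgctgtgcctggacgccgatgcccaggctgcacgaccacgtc

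The 6 mevalonate enzymes carry acetyl units to farnesyl diphosphate. None was called, and their median log2 fold change was 0.18, with 5 estimates above 0. With library-size scaling alone 3 were above 0, and without T4 4 were. Mvd, which decarboxylates mevalonate diphosphate, had counts of 1104, 1061, 1059.8, 653 and 1120.0 in CTRL and 1427, 1234, 1861, 1112 and 1693 in D30. Its 5 D30 values lay between 1112 and 1861, and 4 of them were above every CTRL tumor. Mvd had a log2 fold change of 0.55 ± 0.22 (SE) with a limma adjusted p of 0.205. Pmvk, the kinase that acts just before it, had 650.1, 518, 591, 430.2 and 615 in CTRL and 936, 619, 688, 744 and 945 in D30, and only T2 lay within the CTRL range. Its log2 fold change was 0.48 ± 0.20 (SE) with a limma adjusted p of 0.239.

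Hmgcs1, the HMG-CoA synthase early in the pathway, had counts of 1891 to 3456 across CTRL tumors and 1693 to 4193 in D30, and its groups overlapped almost fully. The estimate on the log2 scale was 0.03 ± 0.25 (SE), with an interval from -0.50 to 0.57. Mvk, the first kinase, had the only mevalonate estimate below 0, -0.23 ± 0.20 (SE) with a limma adjusted p of 0.612. Idi1, the isomerase of isopentenyl diphosphate, ranged from 359 to 1562 in CTRL and 264 to 2106 in D30, so that its spread within a group exceeded its log2 fold change of 0.13 ± 0.49 (SE). Without T4 the estimate of Idi1 was -0.22. Fdps, the farnesyl diphosphate synthase, had low counts of 76.8 to 143 across CTRL tumors and 56.1 to 260.1 in D30. It has near-identical processed pseudogenes, Gm3571 with 98.9% identity over 1062 aligned bases among them, so reads that fit several copies make its level uncertain. Its span also shares 7512 bases with Gm43738, a protein-coding gene on the same strand. What that overlap did to its count was not tested.

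Squalene synthase, encoded by Fdft1, takes farnesyl diphosphate into sterol synthesis and had the highest estimate of the 32. Its counts were 2673, 1544, 2075, 1062 and 1665 in CTRL tumors and 6297, 2698, 3218, 1865 and 4936 in D30 tumors. T1 and T7 were the highest, and only T5 of the D30 tumors lay within the CTRL range. The log2 fold change was 1.01 ± 0.33 (SE) with a limma adjusted p of 0.132, and DESeq2 gave 1.08 with 0.0353. Without T4 the limma values were 1.04 and 0.0879. On GRCm38 (GENCODE M21) Fdft1 spans chr14:63145150-63179578 on the - strand and shares 774 bases with Ctsb on the opposite strand. Ctsb, a lysosomal protease, had mean counts of 22571 in CTRL and 31323 in D30, and whether reads were counted by strand was not given in the sources used here.

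Of the other 10 sterol enzymes 9 had estimates above 0, from 0.09 for Nsdhl to 0.45 for Hsd17b7, and none was called, with limma adjusted p values from 0.394 to 0.909. Over all 11, the median was 0.26, and 10 estimates were above 0. This became 7 with library-size scaling alone and 9 without T4, where Nsdhl had an estimate of -0.13. Sqle, the epoxidase that is a later rate-limiting step, had counts of 1735 to 2789.9 across CTRL tumors and 1955 to 5224 in D30 and a log2 fold change of 0.23 ± 0.26 (SE). Lss, which closes the ring to lanosterol, had 1229, 1309, 1245, 1187 and 1311 in CTRL, within a CV of 4.25%. In D30 its counts were 2567, 1474, 601, 1499.6 and 1545, with 4 tumors above the CTRL range and T4 at less than the lowest CTRL value. Lss had a log2 fold change of 0.15 ± 0.30 (SE), or 0.45 without T4 with a limma adjusted p of 0.147.

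Cyp51, the lanosterol demethylase, had counts of 1939 to 4834 across CTRL tumors and 1709 to 5824 in D30, and Msmo1, the methyl sterol oxidase, had 2005 to 4980.2 in CTRL and 2711 to 6108 in D30. Their log2 fold changes were 0.16 ± 0.33 (SE) and 0.31 ± 0.27 (SE). Tm7sf2, a sterol reductase, ranged over 989 to 1242 in CTRL and 707 to 2768 in D30, with T4 at the top. Nsdhl and Hsd17b7, which remove the methyl groups of lanosterol, and Ebp and Sc5d, which move and add double bonds, were also higher in T1 and T4 than in the other D30 tumors. Dhcr7, the last reductase, had the only sterol enzyme estimate below 0. Its counts were 776, 877, 998, 710.0 and 916 in CTRL and 1136, 927, 371, 324 and 1084 in D30, so that T4 and T5 lay below and T1 and T7 above the CTRL range. The log2 fold change was -0.34 ± 0.35 (SE) with a limma adjusted p of 0.674.

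The 17 synthesis enzymes, the mevalonate and sterol enzymes without Acat2, shared an order of tumors within each group. N5 was the lowest CTRL tumor in 16 of 17, and T5 the lowest D30 tumor in 14 of 17. T1 and T4 were each the highest D30 tumor in 8 of 17, and N1 the highest CTRL tumor in 10 of 17. As a mean deviation on the log2 scale from the average of the 10 tumors, the enzymes stood at -0.58 in N5 and -0.56 in T5, while N1 reached 0.16 and T1 0.63. The span inside either group was wider than the median fold change of the enzymes, 0.24. These are counts and means over genes of the same 10 tumors and carry no test. The order was not compared with that of all tested genes.

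**Figure D3:**
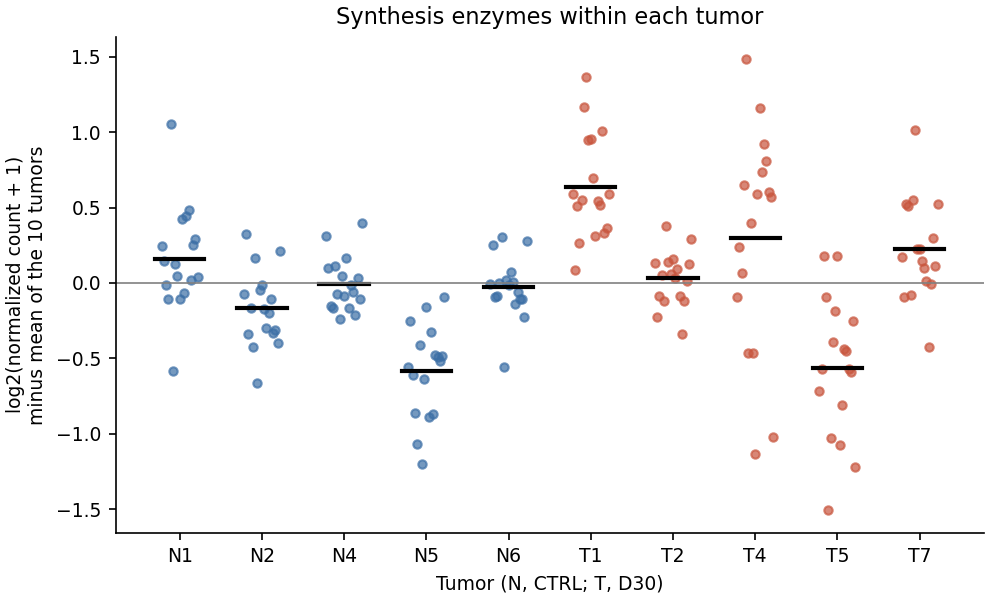
Deviation of log2(normalized count + 1) from the mean of the 10 tumors (y axis) for each of the 17 synthesis enzymes (points) in every CTRL (blue) and D30 (red) tumor, with black bars at the mean over enzymes. The lowest means were those of N5 (-0.58) and T5 (-0.56) and the highest that of T1 (0.63).

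Npc1, the lysosomal membrane protein that exports cholesterol, had counts of 1684, 2785, 2348, 2906 and 2484 in CTRL tumors and 1846, 1356, 877, 2071 and 1305 in D30 tumors. N1 was the lowest CTRL tumor and lay among the D30 values, and the other 4 CTRL tumors lay above all of them. For Npc1 the log2 fold change was -0.75 ± 0.25 (SE) with a limma adjusted p of 0.134, and -0.57 with 0.103 without T4. With both N1 and T4 left out it was -0.70 with a limma adjusted p of 0.0330. Npc2, the soluble partner that hands cholesterol to Npc1, had 10879, 7316, 6770.1, 5696 and 7071 in CTRL and 8594, 7132, 24003, 12010.3 and 10128 in D30. T4 was far above the rest, and the log2 fold change of 0.61 ± 0.30 (SE) with a limma adjusted p of 0.319 became 0.33 without it.

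Stard4, a cytosolic sterol carrier, ranged over 2789 to 4863 in CTRL and 2553 to 4739 in D30 with a log2 fold change of 0.11 ± 0.22 (SE). Soat1, which esterifies cholesterol for storage, had 6038, 6279.7, 6202, 5483 and 5534 in CTRL and 6136, 4410.0, 3865, 6694 and 5265 in D30, and 3 D30 tumors lay below the CTRL range. Its log2 fold change was -0.19 ± 0.18 (SE), with an interval from -0.59 to 0.21 and a limma adjusted p of 0.645. Acat2, the cytosolic thiolase that feeds the mevalonate pathway, had 877 to 2015 in CTRL and 718 to 1987 in D30 and a log2 fold change of -0.12 ± 0.30 (SE). It shares 98.3% identity over 1441 aligned bases with Acat3, which had 43.5 to 230.1 counts, so their reads may have been split. Of the 5 genes listed under sterol transport and esterification none was called. Their median, -0.12, was the estimate of Acat2, which is not a transport or esterification gene.

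Among the LXR genes, Nr1h2, the widely expressed receptor, had counts of 2092, 3315, 4109, 3854 and 3535 in CTRL and 4351, 4835, 1844, 7211 and 4920.3 in D30. It split the tumors as Srebf1 and Srebf2 did, with 4 D30 tumors above the CTRL range and T4 below it. For Nr1h2 the log2 fold change was 0.36 ± 0.32 (SE) with a limma adjusted p of 0.607, and 0.67 with 0.0804 without T4. Nr1h3, the receptor best known from macrophages and liver, had 362, 204, 240.3, 238 and 263 in CTRL and 167, 243, 313, 73.3 and 298 in D30, and a log2 fold change of -0.40 ± 0.37 (SE). Per kb of exon the mean level of Nr1h2 was 1008 (624 to 1225) normalized counts in CTRL, and that of Nr1h3 104 (81.1 to 144), with no overlap of the ranges over tumors in either group.

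Abca1, the exporter of cholesterol to apolipoproteins, had counts of 1109, 946, 763, 889.7 and 835 in CTRL tumors. In D30 tumors the counts were 733, 648, 1994, 426 and 516. T4 was the highest of all 10 tumors, and the other 4 D30 tumors lay below every CTRL tumor. The log2 fold change was -0.30 ± 0.35 (SE) with a limma adjusted p of 0.705, and -0.66 with 0.0576 without T4, still short of a call.

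Mylip, the LXR-induced ligase, had 182, 158, 118, 116 and 140.3 in CTRL and 89.5, 118, 302, 43.5 and 129 in D30, with T4 highest and T5 lowest of all, and a log2 fold change of -0.32 ± 0.42 (SE). Abcg1, the exporter to lipoprotein particles, was the most even of these genes, with 324 to 443 in CTRL and 322 to 459 in D30 and a log2 fold change of 0.02 ± 0.20 (SE), whose interval ran from -0.40 to 0.44. None of the 5 LXR genes was called, and their median was -0.30. Without T4, 5 of the 32 genes had groups that did not overlap, namely Lss, Srebf1, Srebf2, Nr1h2 and Abca1, where 12.1% of all genes tested without it did.

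**Figure D4:**
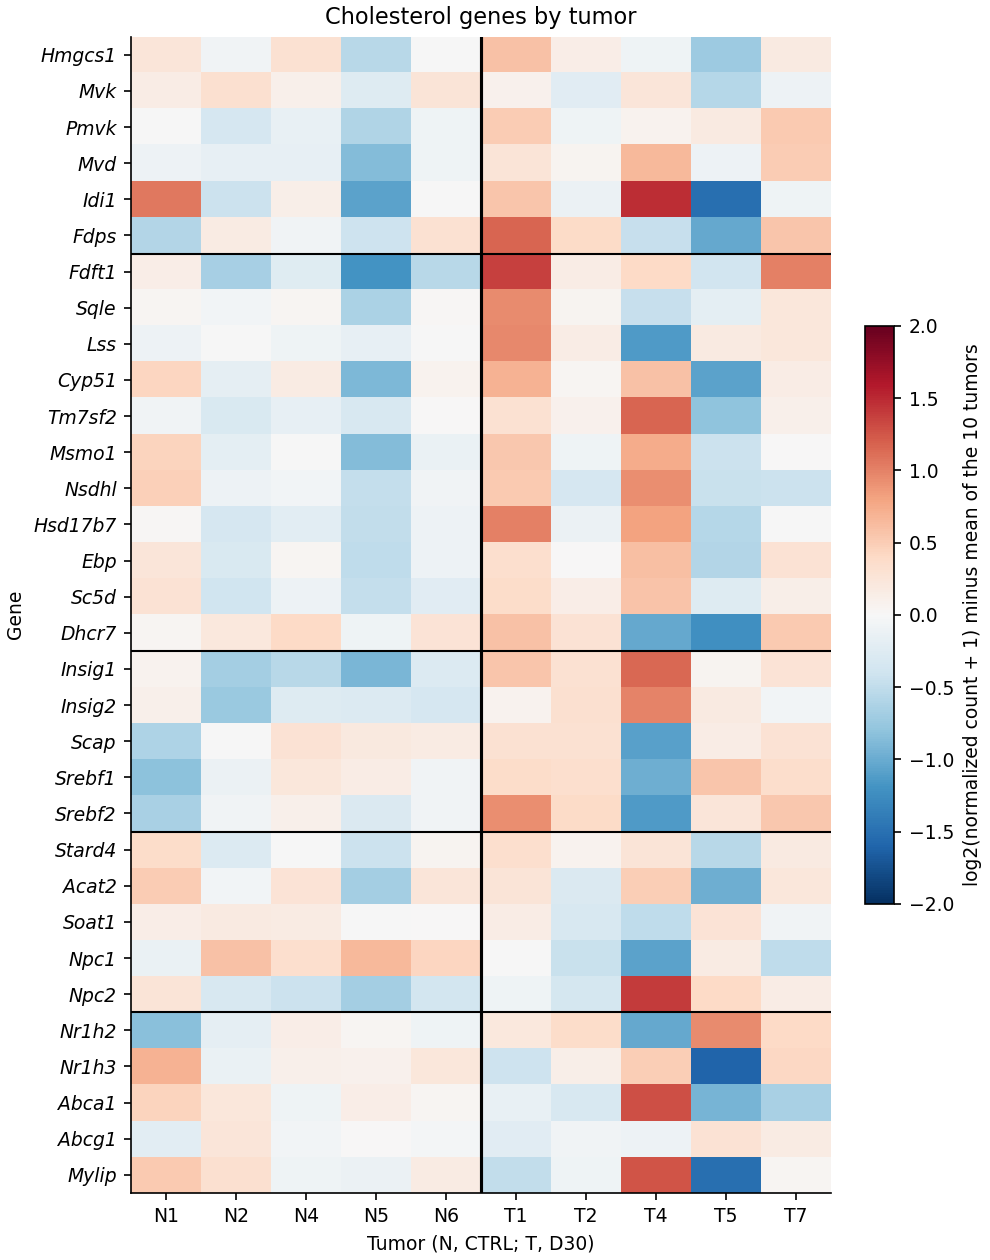
Log2(normalized count + 1) of each of the 32 genes (rows, by role, separated by lines) in each tumor (columns, CTRL left and D30 right) minus its mean over the 10 tumors, in colour from -2 (blue) to 2 (red). N5 and T5 were low across most synthesis enzymes, and T4 was low in Scap, Srebf1, Srebf2 and Nr1h2 and high in Idi1, Npc2, Abca1 and Mylip.

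Beyond the 32 genes, 77 other genes of the pathway were looked up in 5 lists, and 75 of them were tested. Limma called 3, Soat2 higher and Cyp39a1 and Arl4c lower in D30, beside 2.76% of all tested genes. Their median log2 fold change was -0.01, with 37 estimates above 0 and 38 below. Soat2, the second enzyme that esterifies cholesterol, at chr15:102150526-102163469 on GRCm38, had counts of 912, 1021, 908, 1091 and 1117 in CTRL and 1459, 1707, 2488, 2382 and 1619 in D30. The groups did not overlap, and the log2 fold change was 0.91 ± 0.19 (SE) with a limma adjusted p of 0.0253. DESeq2 gave 0.000241 and edgeR 0.0177, while limma gave 0.0525 with library-size scaling alone. Leaving out any 1 CTRL tumor raised the limma adjusted p to between 0.0617 and 0.0814. Soat1 in the same tumors had its estimate below 0, as given above.

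Per kb of exon, the Soat1 level was 603 (560.0 to 641) normalized counts in CTRL and 539 (395 to 684) in D30, and that of Soat2 was 456 (410.4 to 505) and 873 (659 to 1124). Soat1 was above Soat2 in every comparison of CTRL tumors, and in D30 the ranges just overlapped with Soat2 at the higher mean.

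Cyp39a1, an oxysterol hydroxylase, had 1488, 1032, 941, 1119.9 and 945 in CTRL and 608, 403, 591, 500.2 and 656 in D30, at chr17:43667425-43751431 on GRCm38. Every D30 tumor lay below every CTRL tumor, and the gene fell by 1.0 ± 0.21 (SE) on the log2 scale with a limma adjusted p of 0.0208. The call was lost without N1, N2, N5 or T2, with limma adjusted p values of 0.0522, 0.0647, 0.0638 and 0.0538. Arl4c, a small GTPase known as an LXR target, had 8334, 13863, 8963, 11308 and 8816 in CTRL and 6910.4, 4242, 2823, 6993 and 4588 in D30, again without overlap. It fell by 1.06 ± 0.26 (SE) with a limma adjusted p of 0.0497, and edgeR gave 0.0570. Without N1, N2, N4, N5, N6, T2 or T7 its call was lost, with limma adjusted p values from 0.0694 to 0.153.

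Within the other lists the counts were small. Of 14 other isoprenoid and sterol enzymes none was called, and the smallest p was that of Pdss1, of ubiquinone synthesis, with a log2 fold change of -0.61 ± 0.22 (SE) and a limma adjusted p of 0.178. Without T4 it was called, at -0.77 and 0.0233. Of 13 other SREBP processing genes none was called, and the smallest p was that of Rnf145, a ligase that acts on Scap, with a log2 fold change of -0.77 ± 0.29 (SE) and a limma adjusted p of 0.188. Soat2 was the 1 call among 23 sterol handling genes, Arl4c the 1 among 17 LXR partners and targets, and Cyp39a1 the 1 among 8 oxysterol and bile acid enzymes. The medians of these 5 lists were 0.11, 0.04, 0.17, -0.38 and -0.46 in the order named.

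Most of the 32 genes were more spread in D30 than in CTRL. The coefficient of variation was higher in D30 for 30 of the 32 genes, with a median of 37.2% against 21.3% in CTRL, where over all tested genes it was higher in D30 for 84.1%. Without T4 it was higher for 23 of the 32 and for 64.2% of all genes. The direction in which T4 stood apart went in part with base composition, taken as the GC content of the longest coding transcript. Of the 16 genes above the median GC of 50.5%, T4 was below the median of the other D30 tumors in 10 and above it in 6. T4 was the lowest D30 tumor in 5 of these 16 and the highest in 6. Of the 16 at or below the median GC, T4 was above in 12 and below in 4. Srebf2, with 57.9% GC, differed by -1.60 on the log2 scale and Nr1h2, with 60.6%, by -1.40, while Abca1, with 47.5%, differed by 1.78 and Idi1, with 41.9%, by 1.58. Against that direction, Npc2, with 51.3% GC, differed by 1.36 and Tm7sf2, with 56.5%, by 1.07. Among CTRL tumors, N1 was above the median of the others in 15 of the 16 genes at or below the median GC, with a median difference of 0.45 on the log2 scale. Of the 16 above it, N1 was lower in 9 and higher in 7, with a median difference of -0.04. Over all genes with a mean of at least 50 and a GC above 50.5%, the median difference of T4 was -0.60, and below it 0.37. For N1 these all-gene values were -0.27 and 0.26, so neither tumor's pattern was particular to the 32 genes. The part of base composition in any fold change was not tested.

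**Figure D5:**
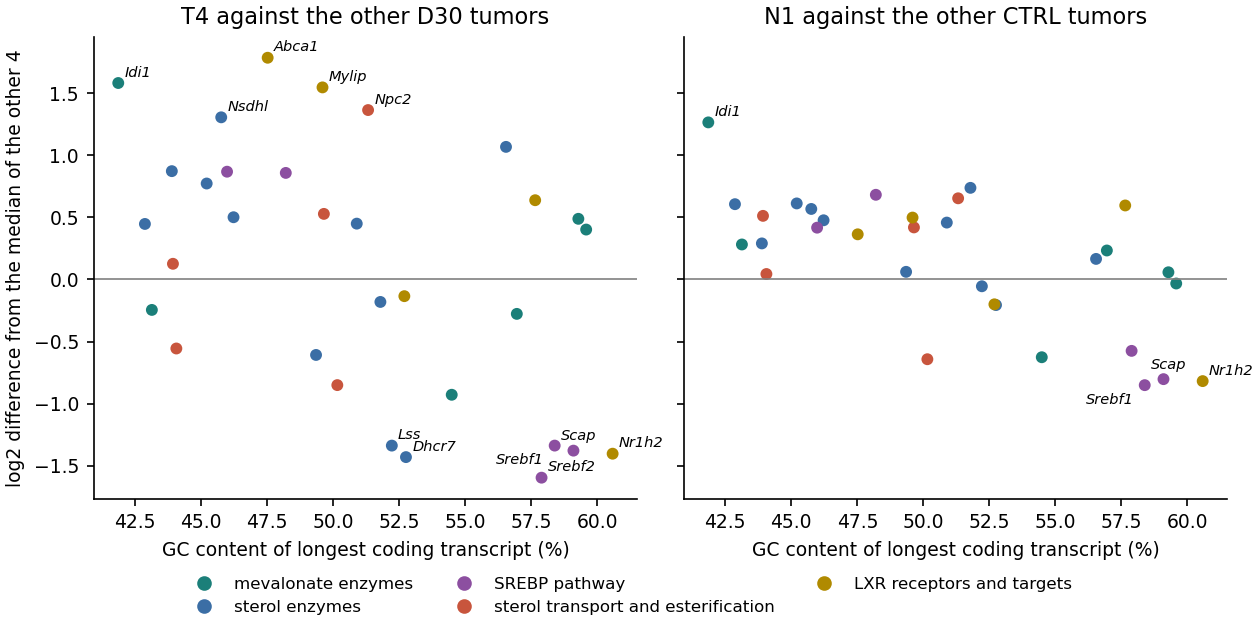
Log2 difference of tumor T4 from the median of the other 4 D30 tumors (left, y axis) and of N1 from the other 4 CTRL tumors (right) for the 32 genes, coloured by role, against the GC content of each gene's longest coding transcript in percent (x axis). Srebf1, Srebf2, Scap and Nr1h2 lay low at high GC in both panels, and Idi1 lay high at the lowest GC. In the left panel Npc2 and Tm7sf2 lay high although above the median GC.

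Among 8 macrophage markers 7 estimates were below 0 and 2 were called lower in D30. Csf1r had a log2 fold change of -1.06 ± 0.26 (SE) with a limma adjusted p of 0.0449, and for Cd163 these were -2.12 ± 0.42 (SE) and 0.0174. Without T4, Mrc1 and C1qb were also called lower, at limma adjusted p values of 0.00765 and 0.0490. The summed counts of the 8 macrophage markers ran from 18656 to 31070.3 in CTRL and from 9666 to 26699 in D30, with T4 the highest and T5 the lowest D30 tumor. Single markers did not share that order: T4 was the lowest D30 tumor for Csf1r, at 693, and T2 the highest for Cd163, at 179.8. Among 5 endothelial markers 1 was called lower, Cdh5, with a log2 fold change of -1.45 ± 0.26 (SE) and a limma adjusted p of 0.0117. The endothelial sums of 10195 to 17486 across CTRL tumors and 4378 to 8357 in D30 did not overlap. The 7 fibroblast markers all had estimates below 0 with none called, and sums of 76308 to 135218 across CTRL tumors and 26700.3 to 102388 in D30. Of 6 epithelial markers 5 had estimates above 0 and Epcam had its estimate below 0. None was called with all tumors. Without T4, Epcam was called lower and Krt18 and Krt7 higher, at limma adjusted p values of 0.00902, 0.0415 and 0.0363. The epithelial sums did not overlap, as given above. None of the 7 acinar, 6 adipocyte, 5 T cell, 4 B cell, 4 neutrophil and 3 tested Schwann cell markers was called with all tumors. Without T4, Cpa1, of the acinar list, was called lower at a limma adjusted p of 0.0403. Acinar sums ranged from 270.4 to 51549 in CTRL and from 144 to 4898 in D30. The part of these cell types in the values of the 32 genes was not tested.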

How the data were processed

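RNA from 5 CTRL and 5 D30 tumors was sequenced by the authors in 150-bp pairs from strand-specific libraries, and the submitters' processing notes name Trim Galore and STAR (2.7.0e). The labels name GRCm39 and the methods hg38 as reference, and the identifiers are those of mouse genes. The annotation and the strand setting of counting were not given in the sources used here. The authors deposited 1 table of 55359 genes with a signal value for every gene in every tumor, which has the properties of reads divided by DESeq2 size factors. Of the values above 0, 100.0% (tolerance 0.01) were whole multiples of 1 step per column, which gave back the reads. Columns are headed by N or T with a number. N columns were taken as CTRL, whose titles begin with Normoglycemic, and T columns as D30, the remaining group, and no column was tied to a single labelled sample. The labels' titles speak of PDX, while their source is KPC K8484 cells. Identifiers matched GENCODE M21 (GRCm38) for 94.1% of genes, which gave names, positions and exonic lengths.

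The planned test, limma (3.58.1, R 4.3.3) with a mean-variance trend, two-sided, was run on log2(normalized count + 1) over the 24560 genes with a mean of at least 1, and a Benjamini-Hochberg adjusted p under 0.05 was a call. A fold change on this scale understates changes of low genes. edgeR (4.0.16) and DESeq2 (1.42.0) ran on the recovered reads, and other scalings, pseudocounts, filters and the leaving out of each tumor were tried. The scripts were tested on simulated data. P values measure the spread between these tumors, which the series' design text calls independent replicates.

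The members, the lists of other pathway genes and markers and the tests were chosen with earlier results of these data known. All 32 members are named, and of the other lists the called genes, the gene with the smallest p in each list and the markers that stand beside a result. Faxdc2 had no match by name, and Rxrg and Sox10 were not among the tested genes. Near copies were found by aligning each member's longest coding transcript (minimap2) to all M21 transcripts. The spans of 15 members overlapped another gene, and those of 7 a protein-coding gene.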

Additional observations from a re-analysis of the deposited data

Results flagged for a closer look

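In each of the 70 groups of 5 tumors formed by the 32 genes and the 3 called pathway genes, the gap of the highest or lowest tumor to its nearest neighbour was divided by the range, with 0.71 as the 95% critical value. The gap was taken on normalized counts and not on the log2 scale, where a high tumor stands less far apart. It passed the critical value in 7 groups. A rate of about 1 group in 20 by chance holds only for independent groups of normally distributed values. These groups share the same tumors and their distribution was not tested, so the 7 cannot be set against that rate. In 5 of the 7, all in D30, the tumor apart was T4. It was the highest for Abca1 (0.804), Insig2 (0.723) and Npc2 (0.711), and the lowest for Scap (0.834) and Srebf1 (0.786). The other 2 were in CTRL, where N5 was the lowest for Mvd (0.871) and Sqle (0.831). Without T4, the log2 fold change was -0.66 for Abca1, 0.43 for Insig2, 0.33 for Npc2, 0.26 for Scap and 0.53 for Srebf1, and none of these 5 genes was called by limma.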

How the results depend on the processing

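The count of called genes among the 32, which was 0 in limma on all tumors, was 2 in DESeq2 (Insig1 and Fdft1) and 0 in edgeR and with each other scaling, pseudocount, filter or trend setting. It ran from 0 to 2 when 1 tumor was left out. Pairs of tumors were also left out, alternatives chosen after seeing the data. The count was then 3 without N1 and T4 (Insig1, Srebf2 and Npc1), in a fit that called 1584 of 24421 genes. It was 4 without T4 and T5 (those 3 and Fdft1), in a fit that called 2418 of 24264 genes. Of the 75 other pathway genes tested, 3 were called by limma on all tumors. Their count was 5 in DESeq2, 1 in limma without the trend and 0 to 5 with 1 tumor left out. In the same 2 fits without pairs of tumors it was 8 without N1 and T4, and 6 without T4 and T5. The median log2 fold change of the 32 ran from -0.03 with library-size scaling alone to 0.33 without T4 and T5, and from 0.03 (without T1) to 0.29 (without T5) with 1 tumor left out. Over 22 alternatives, 20 of the 32 genes kept their sign. Over all genes, 678 were called in the reported fit, 1982 in DESeq2, 1573 without T4, 1584 without N1 and T4, 2418 without T4 and T5, and 279 without N2, 340 without N5, 332 without N6 and 433 without T7. The causes were not tested. No paired analysis was possible because the numbers in the column headings are not those the labels give to replicates.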
